A study of Drosophila melanogaster with 8 samples.

Results

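Neuropeptide and peptide hormone precursors are the 35 genes, of 17807 in the expression table, whose symbols stand in a list of known fly peptide genes from which the insulin-like peptides were left out. They were followed in total RNA from the dissected central nervous system (CNS) of first instar Drosophila melanogaster larvae, with 3 libraries of the elav5/fne double mutant, 2 of the elav5 single mutant and 3 of Canton-S, a laboratory wild-type strain. Both mutations are knockout deletions, the larvae used were homozygous and were picked by a visible marker, and the double mutant carries the elav5 deletion of the single mutant together with a deletion in fne. Flies of all 3 genotypes were kept at 25 °C, and the labels give no transgene, no treatment and no common genetic background for the mutants and Canton-S. Nothing in them says that the libraries were made from different larvae, so the p-values measure the spread between these libraries, which may be technical.

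elav and fne encode related RNA-binding proteins of neurons, which act on splicing and 3' end choice of neuronal transcripts. A neuropeptide is made as a larger precursor protein, which is cut by proprotein convertases, trimmed and often amidated inside dense-core vesicles, and then released to act mostly on G-protein-coupled receptors. In the larval brain and ventral nerve cord many of these precursors, though not all, are made by small, fixed sets of neurons. The transcripts of those precursors also mark those cells. In RNA from a whole tissue, fewer such cells and less RNA per cell cannot be told apart.

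Expression is given in CPM, the reads of a gene after its library was scaled to 1000000 counted reads. Changes are log2 differences of CPM + 1 between group means, each followed by a standard error (SE), and a gene is called changed at an adjusted p under 0.05 in the limma fit over all 10575 tested genes. Libraries held 30038106 to 38056274 counted reads, at which 3 reads equal 0.0788 to 0.0999 CPM. elav stood at 53.2, 61.0 and 53.7 CPM in elav5/fne and at 33.4 and 24.4 CPM in elav5, against 602, 620 and 599 CPM in Canton-S. fne stood at 141, 179 and 127 CPM in elav5/fne, against 938 and 1129 CPM in elav5 and 960, 1045 and 1038 CPM in Canton-S, so the targeted genes followed the labels. Summed CPM of 12 muscle markers was 2770, 6240 and 15503 in elav5/fne, 2673 and 810 in elav5, and 1657, 1645 and 1293 in Canton-S. The sum was highest in elav5/fne replicate 3, though replicate 2 also stood well above replicate 1. The elav5 libraries differ from each other too, and with 2 of them neither can be called the odd one. Fits without elav5 replicate 2 keep the library with the higher muscle sum and leave elav5 with 1 library. Fat body markers were high in Canton-S replicate 2, at 1206 summed CPM against 579 and 499 in its group. General neuronal markers were present in every library and summed to 8633 to 9926 CPM in elav5/fne, 14074 and 14889 in elav5 and 17009 to 17388 in Canton-S.

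In elav5/fne nearly the whole set fell. Of the 35 genes 31 passed the filter of 1 CPM in 2 libraries, and 28 of these were lower than in Canton-S, 2 were higher (Nplp2 and Nplp4) and 1, ITP, was not called. Among all tested genes 26.7% were called lower and 32.5% higher in this comparison. The median log2 change over the 31 was -2.09, against 0.07 over all tested genes. On the same scale 24 of the 31 were at least 2-fold lower and 16 at least 4-fold lower. Over all tested genes the 5th percentile of the log2 change was -1.13. Dh31, the member at the median of -2.09, ranked 132 of the 10575 by loss. The libraries of all 28 that fell lay below every Canton-S library, a separation that 31.9% of all tested genes showed in that direction, and the libraries of the 2 that rose lay above every Canton-S library, as did those of 37.6% of all tested genes.

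The summed CPM of the 35 genes was 747, 746 and 715 in elav5/fne, 1642 and 1875 in elav5, and 2082, 2138 and 2201 in Canton-S. The elav5/fne libraries thus sat close together and far under both other genotypes, and this held for replicate 3 as well as for the others. Without elav5/fne replicate 3 and elav5 replicate 2 the same 28 were called lower against Canton-S and the same pair higher.

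In elav5 against Canton-S 13 members were lower, none was higher in the limma fit and 18 were not called, with 11.8% of all tested genes lower and 8.29% higher. The median change was -0.43, against -0.04 over all tested genes. The 13 were AstA, AstCC, Mip, Capa, ITP, Eh, Pburs, NPF, Hug, FMRFa, Pdf, Nplp1 and Orcokinin. At an unadjusted p under 0.05, 15 were lower and 1, Proc, was higher, with no share of all tested genes given at that threshold. edgeR called none higher, whereas DESeq2 called Proc. Only Orcokinin, Pdf, Pburs and ITP of the 13 were called lower under every one of the alternative settings in which they were tested. The count fell to 5 without either Canton-S replicate 1 or replicate 2 and to 7 without Canton-S replicate 3. Over all tested genes the lower count fell too, from 1247 to 530, 573 and 938 without Canton-S replicate 1, 2 and 3. The count of members also fell without either elav5 library, which leaves 1 library in that group. AstA, AstCC, Capa, FMRFa, Hug, Mip, NPF and Nplp1 were lost without Canton-S replicate 1, without Canton-S replicate 2 and without elav5 replicate 1, where Nplp2 was gained; Eh was lost with edgeR and with a pseudocount of 0.1 CPM. Without elav5 replicate 2 and elav5/fne replicate 3 together it was 13, of which 11 were shared. Both elav5 libraries lay below every Canton-S library for 16 members and above every one for 3 (CCHa1, Proc and Nplp4), against 30.7% and 22.9% of all tested genes.

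Set directly against elav5, elav5/fne had 28 members lower and 2 higher (ITP and Nplp2), with Nplp4 not called. Without elav5/fne replicate 3 and elav5 replicate 2, 25 were lower and the same pair higher, with CCHa2, Hug and Pburs lost. Of all tested genes 16.7% were lower and 26.8% higher between the mutants. The groups did not overlap for 28 members lower and 2 higher, against 24.1% and 39.5% of all tested genes. The median change was -1.73, against 0.14 over all tested genes. Both mutants share the Canton-S libraries in these comparisons, so their changes are set side by side and not tested for likeness.

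**Figure D1:**
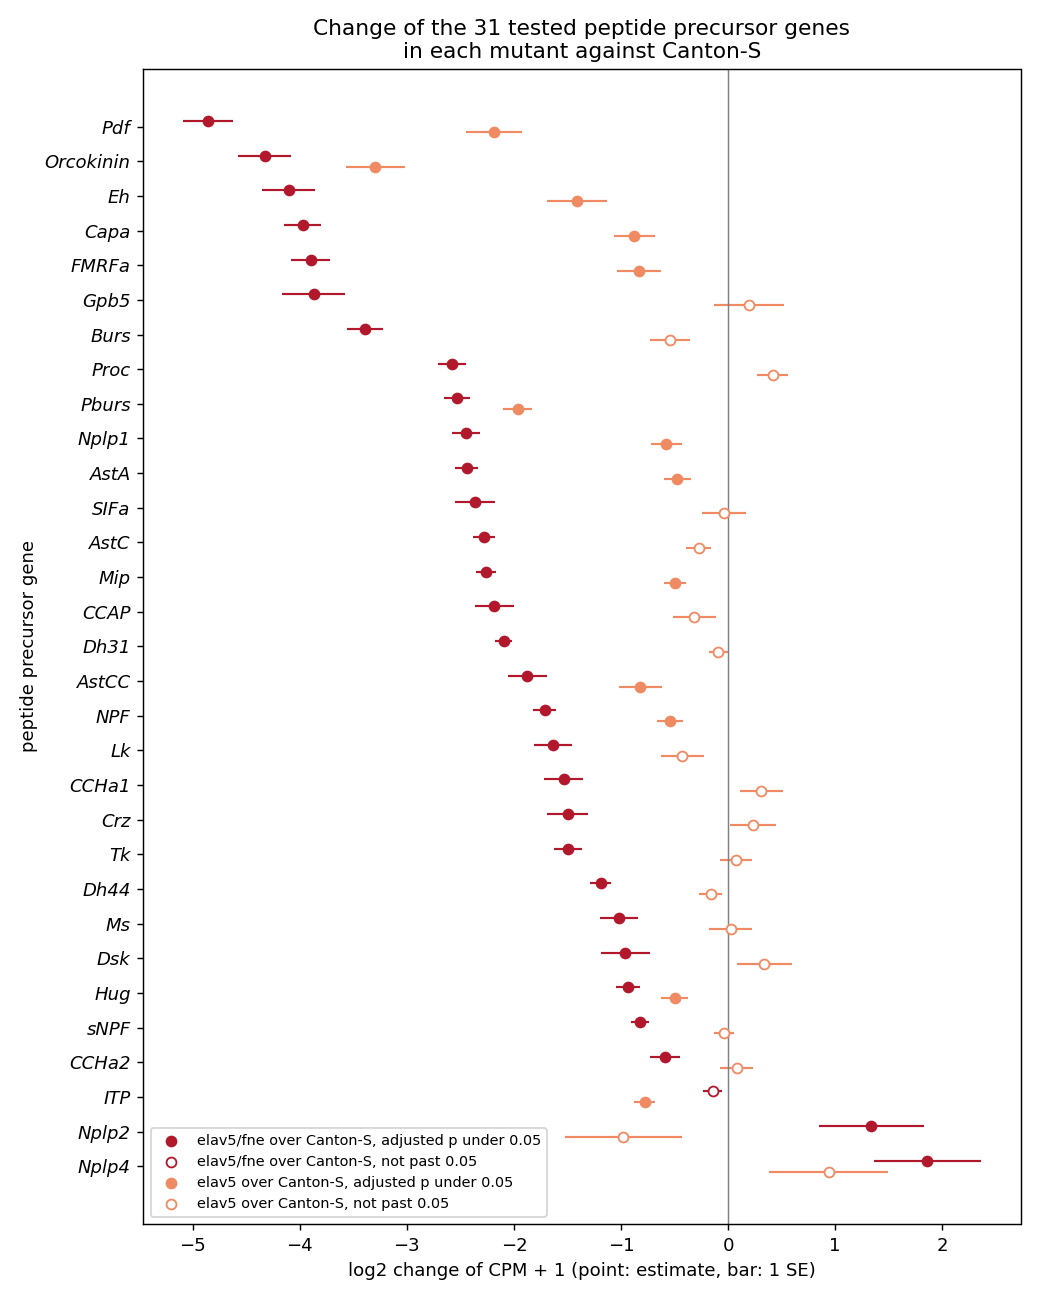
Log2 change of CPM + 1 (horizontal axis; point, estimate; bar, 1 SE) of the 31 tested peptide precursor genes (vertical axis) in elav5/fne over Canton-S (red) and in elav5 over Canton-S (orange), with filled points for an adjusted p under 0.05. The red points lie left of 0 for all but Nplp2 and Nplp4, while the orange points lie on both sides of 0, with Orcokinin, Pdf, Pburs and Eh farthest to the left.

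The 10 deepest falls in elav5/fne were, in order, those of Pdf, Orcokinin, Eh, Capa, FMRFa, Gpb5, Burs, Proc, Pburs and Nplp1. Among all 10575 tested genes they ranked 6, 8, 9, 11, 13, 14, 28, 67, 74 and 80 by loss. In elav5 the order began with Orcokinin, Pdf, Pburs and Eh, at ranks 8, 27, 33 and 77 of all tested genes. These orders depend on the scale. As a percentage of the Canton-S mean, the lowest tested members in elav5/fne were Eh (1.00%), Pdf (1.32%), AstCC (2.88%) and Orcokinin (2.89%). AstCC, with a mean of 3.01 CPM in Canton-S, ranked 17 among the tested members by log2 change of CPM + 1.

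**Figure D2:**
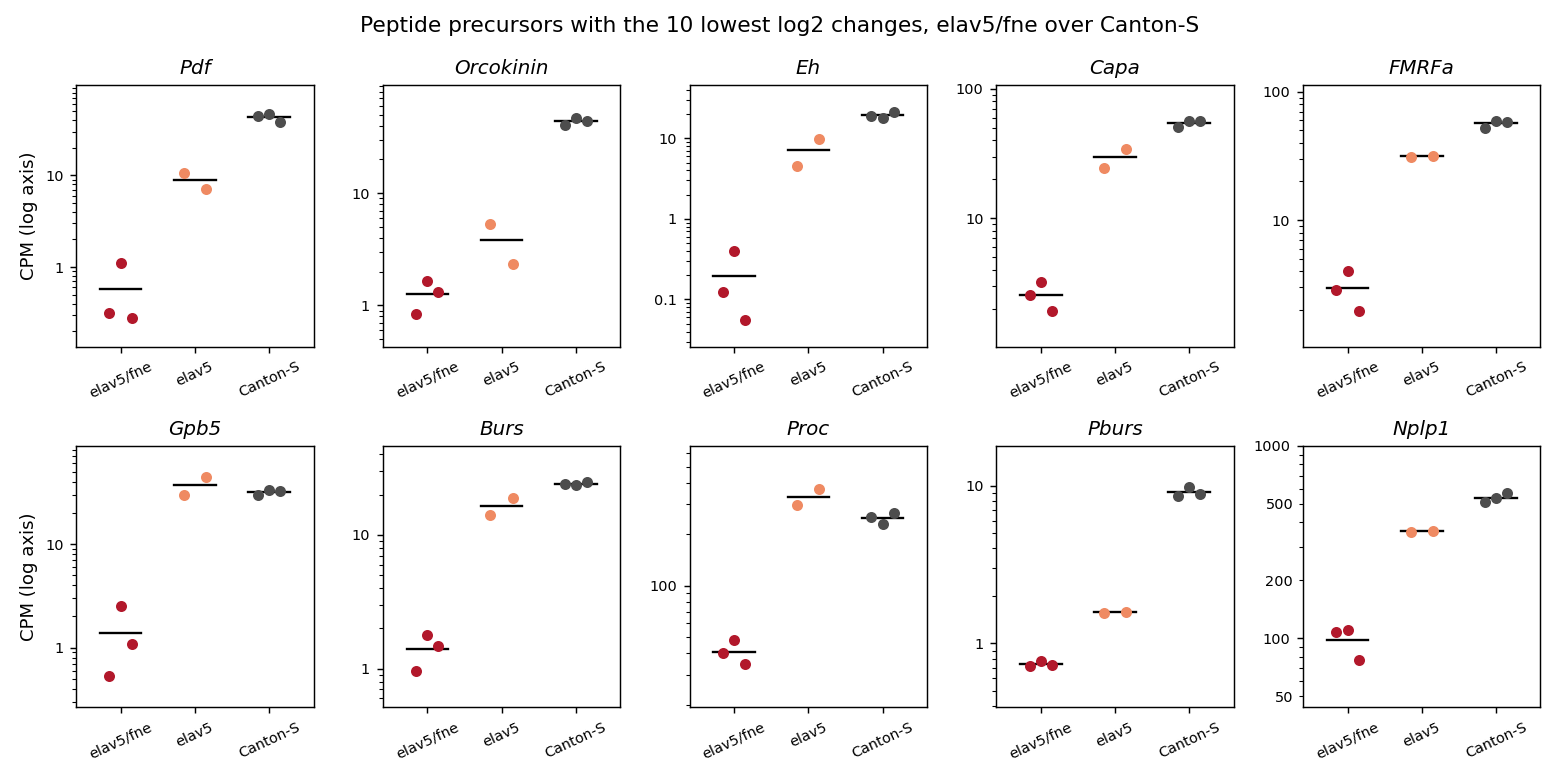
CPM on a log axis in each library (points) of elav5/fne, elav5 and Canton-S for the 10 peptide precursor genes with the lowest log2 change in elav5/fne over Canton-S; the line is the group mean. In each panel all elav5/fne points lie below all elav5 and Canton-S points. On this axis elav5 sits nearer to elav5/fne than to Canton-S for Orcokinin and Pburs, and near or above Canton-S for Gpb5 and Proc.

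Pdf encodes the pigment-dispersing factor, the transmitter of the brain's small ventral clock neurons, and lies on chromosome arm 3R at 26455462 to 26456141 (minus strand, dm6 coordinates). It had 0.312, 1.12 and 0.280 CPM in elav5/fne, 10.7 and 7.13 CPM in elav5, and 44.4, 47.0 and 38.5 CPM in Canton-S. Every elav5/fne library lay below both elav5 libraries, which in turn lay below every Canton-S library. The log2 change was -4.85 (SE 0.23, adjusted p = 2.7e-06) in elav5/fne and -2.18 (SE 0.26, adjusted p = 0.0029) in elav5, both over Canton-S, and -2.67 (SE 0.26, adjusted p = 0.00014) in elav5/fne over elav5. The mean was 1.32% of Canton-S in elav5/fne and 20.5% in elav5. Pdfr, the receptor for this peptide, named here after its values were seen, had a log2 change of -0.04 in elav5/fne over Canton-S (adjusted p = 0.84).

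The other gene placed with Pdf, amn on the X chromosome, encodes a precursor needed for memory in adult flies and was under the filter, so it was not tested. It had 0.156, 0.402 and 0.392 CPM in elav5/fne, 0.333 and 0.389 CPM in elav5, and 0.128, 0.0908 and 0.105 CPM in Canton-S, which is 5 to 14 reads per library in elav5/fne. Its exons overlap those of Hers on the opposite strand over 3.54% of their length, and whether the authors' counting used strand is not given in the sources used here.

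The ecdysis peptides form a cascade that drives the shedding of the old cuticle and the hardening of the new one. All 4 fell in elav5/fne, with a median change of -2.96, against 26.7% of all tested genes called lower. Eh encodes eclosion hormone, made in the larva by a single pair of brain neurons. It lies on 3R at 17446642 to 17448858 (minus strand). It had 0.125, 0.402 and 0.0560 CPM in elav5/fne, 4.49 and 9.67 CPM in elav5, and 19.0, 17.9 and 21.3 CPM in Canton-S. The elav5/fne values rest on 2 to 14 reads a library and amount to 1.00% of the Canton-S mean. The log2 change was -4.10 (SE 0.25, adjusted p = 7.2e-06) in elav5/fne and -1.41 (SE 0.28, adjusted p = 0.014) in elav5, each over Canton-S.

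Burs and Pburs encode the subunits of bursicon, the heterodimeric hormone that hardens and darkens the cuticle. Burs, on 3R at 21769518 to 21770279 (plus strand), had 0.966, 1.78 and 1.48 CPM in elav5/fne, 14.0 and 18.8 CPM in elav5, and 24.1, 23.5 and 24.6 CPM in Canton-S. Pburs, on 2L at 14416729 to 14417331 (minus strand), had 0.717, 0.775 and 0.728 CPM in elav5/fne, 1.56 and 1.59 CPM in elav5, and 8.62, 9.81 and 8.80 CPM in Canton-S. In elav5 Pburs was at 17.4% of its Canton-S mean and Burs at 68.1%, and in elav5/fne they were at 8.15% and 5.86%. The elav5 change over Canton-S was -1.97 for Pburs (SE 0.14, adjusted p = 0.00037) and -0.54 for Burs (adjusted p = 0.080). Mean Pburs was 52.5% of mean Burs in elav5/fne, 9.62% in elav5 and 37.7% in Canton-S. In elav5/fne both were near 1 CPM, where adding 1 draws their log2 ratio toward 0. The log2 ratio of Pburs to Burs, on CPM + 1, averaged -0.46 in elav5/fne, -2.74 in elav5 and -1.32 in Canton-S. The elav5 difference from Canton-S in that ratio was -1.42, with p = 0.1 in an exact two-sided permutation test over libraries, which is the smallest value that 2 against 3 libraries allow and 1 of 12 such tests made over 4 gene pairs, none of which can pass 0.05. In elav5/fne over Canton-S the changes were -2.53 for Pburs (SE 0.12, adjusted p = 2.9e-06) and -3.39 for Burs (SE 0.17, adjusted p = 2.9e-06). CCAP, whose cardioactive peptide is made by neurons that also make bursicon, averaged 2.73 ± 0.607 CPM in elav5/fne, 12.6 ± 2.85 CPM in elav5 and 15.8 ± 1.80 CPM in Canton-S (SD, n = 3, 2 and 3). It fell in elav5/fne and was not called in elav5 (log2 change -0.32, adjusted p = 0.30). CCAP shares 6.24% of its exon length with CG6972 on the opposite strand, a gene that averaged 2.14 ± 0.984 CPM in elav5/fne, 1.01 ± 0.303 CPM in elav5 and 0.655 ± 0.216 CPM in Canton-S.

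Of the peptides of water and salt balance, 5 of the 6 tested fell in elav5/fne, with a median change of -1.86 over the 6. In elav5 2 of the 6 fell. The shares of all tested genes called lower were 26.7% in elav5/fne and 11.8% in elav5. Capa encodes peptides that act on the Malpighian tubules and comes from a few neurons of the ventral nerve cord. It lies on 3R at 29912991 to 29914346 (minus strand). It had 2.55, 3.21 and 1.93 CPM in elav5/fne, 24.6 and 34.6 CPM in elav5, and 50.5, 56.3 and 56.7 CPM in Canton-S. The groups were in separate steps, with elav5/fne at 4.71% and elav5 at 54.3% of Canton-S. The log2 change was -3.97 in elav5/fne (SE 0.17, adjusted p = 2.1e-06) and -0.88 in elav5 (SE 0.19, adjusted p = 0.019), each over Canton-S.

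Gpb5, on 2L at 23311700 to 23312464 (plus strand), encodes the beta subunit of a glycoprotein hormone related to vertebrate thyrostimulin. It had 0.530, 2.50 and 1.09 CPM in elav5/fne, 29.9 and 44.5 CPM in elav5, and 29.5, 33.4 and 32.4 CPM in Canton-S. The elav5 libraries lay within and above the Canton-S range, while all 3 elav5/fne libraries lay far below it. The log2 change was -3.87 (SE 0.29, adjusted p = 2.1e-05) in elav5/fne over Canton-S, 0.20 (adjusted p = 0.70) in elav5 over Canton-S and -4.07 (SE 0.33, adjusted p = 5.2e-05) in elav5/fne over elav5. Gpa2, which encodes the alpha subunit and which the reference annotation places on an unmapped scaffold, was at 0 in all 8 libraries, a count that allows up to 0.0788 to 0.0999 CPM by counting error alone.

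Dh31, Dh44 and Lk encode diuretic peptides, a calcitonin-like hormone, a hormone related to corticotropin-releasing factor and leucokinin. Dh31 averaged 25.8 ± 1.70 CPM in elav5/fne, 106 ± 10.5 CPM in elav5 and 113 ± 0.914 CPM in Canton-S. Dh44 averaged 47.3 ± 4.98 CPM in elav5/fne, 97.3 ± 10.05 CPM in elav5 and 109 ± 4.74 CPM in Canton-S. Lk averaged 9.52 ± 2.50 CPM in elav5/fne, 22.8 ± 2.06 CPM in elav5 and 30.9 ± 1.11 CPM in Canton-S (SD, n = 3, 2 and 3 for each). All 3 fell in elav5/fne against both other genotypes, and in elav5 over Canton-S, with log2 changes of -0.09 (adjusted p = 0.50), -0.16 (adjusted p = 0.33) and -0.43 (adjusted p = 0.17), they were not called. asRNA:CR44843 overlaps 93.0% of the Lk exons on the opposite strand, and it had 2.06, 1.81 and 2.05 CPM in elav5/fne, 1.598 and 1.47 CPM in elav5, and 2.05, 1.57 and 2.18 CPM in Canton-S. Its values overlapped between elav5/fne and Canton-S.

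ITP, the gene of the ion transport peptide, an antidiuretic hormone, lies on chromosome arm 2R. It had 112, 105 and 96.7 CPM in elav5/fne, 65.9 and 67.8 CPM in elav5, and 103.98, 120 and 124 CPM in Canton-S. The elav5/fne and Canton-S libraries overlapped, and both elav5 libraries lay below them all. In elav5 over Canton-S the log2 change was -0.78 (SE 0.10, adjusted p = 0.0037). In elav5/fne over elav5 it was 0.64 (SE 0.10, adjusted p = 0.0016). In elav5/fne over Canton-S it was -0.14 (SE 0.09, 95% confidence interval -0.35 to 0.06, adjusted p = 0.20), so a fall of up to that lower bound lay within the interval. Each of these 3 outcomes was the same under all 21 alternative settings. CG4622 overlaps 6.32% of the ITP exons on the opposite strand and averaged 31.9 ± 2.32 CPM in elav5/fne, 27.7 ± 0.218 CPM in elav5 and 28.5 ± 2.02 CPM in Canton-S.

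The allatostatin-type peptides are mostly inhibitory and act on gut, endocrine glands and feeding. All 4 tested fell in elav5/fne, with a median change of -2.27, against 26.7% of all tested genes called lower. AstA averaged 11.3 ± 1.24 CPM in elav5/fne, 47.1 ± 5.63 CPM in elav5 and 65.5 ± 3.77 CPM in Canton-S. AstC averaged 8.999 ± 0.573 CPM in elav5/fne, 39.2 ± 5.62 CPM in elav5 and 47.4 ± 2.31 CPM in Canton-S. Mip, the precursor of the myoinhibitory peptides, averaged 11.1 ± 0.925 CPM in elav5/fne, 40.3 ± 3.69 CPM in elav5 and 57.2 ± 3.14 CPM in Canton-S (SD, n = 3, 2 and 3 for each). These means were 17.2% to 19.5% of Canton-S in elav5/fne and 70.5% to 82.7% in elav5. AstCC, a paralog of AstC, was scarce throughout, at 0.0312, 0.230 and 0 CPM in elav5/fne, which is 0 to 8 reads, 1.36 and 1.14 CPM in elav5, and 2.92, 3.78 and 2.34 CPM in Canton-S. AstA, AstCC and Mip were also lower in elav5, by -0.47 (adjusted p = 0.032), -0.82 (adjusted p = 0.029) and -0.50 (adjusted p = 0.019) on the log2 scale. AstC had a change of -0.27 there (adjusted p = 0.13).

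The modulators of muscle, stress and circuits numbered 5, and all fell in elav5/fne, with a median change of -1.50. In elav5 the median was 0.07 and only FMRFa was called. The shares of all tested genes called lower were 26.7% in elav5/fne and 11.8% in elav5. FMRFa encodes a family of amidated peptides that modulate muscle and is made by the thoracic Tv neurons, in which target-derived BMP signalling is known to switch it on. It lies on 2R. It had 2.87, 4.05 and 1.96 CPM in elav5/fne, 30.96 and 31.6 CPM in elav5, and 52.5, 59.5 and 58.2 CPM in Canton-S. No 2 groups overlapped, and the mean was 5.22% of Canton-S in elav5/fne and 55.2% in elav5. The log2 change over Canton-S was -3.90 in elav5/fne (SE 0.18, adjusted p = 2.6e-06) and -0.84 in elav5 (SE 0.20, adjusted p = 0.028).

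Proc, on 2L at 7864642 to 7871432 (minus strand), encodes proctolin, a pentapeptide that potentiates muscle contraction. It had 40.4, 48.0 and 34.8 CPM in elav5/fne, 299 and 368 CPM in elav5, and 251, 229 and 266 CPM in Canton-S. Both elav5 libraries were above all Canton-S libraries and every elav5/fne library was far below. The log2 change was -2.58 in elav5/fne (SE 0.13, adjusted p = 3.3e-06) and 0.41 in elav5 (SE 0.15, adjusted p = 0.086), each over Canton-S, and -3.00 in elav5/fne over elav5 (adjusted p = 8.6e-06). Across all alternatives the adjusted p of the elav5 change ran from 0.022, with DESeq2, to 0.36. Proc-R, the proctolin receptor, averaged 50.5 ± 1.29 CPM in elav5/fne, 49.0 ± 6.40 CPM in elav5 and 38.7 ± 2.89 CPM in Canton-S (SD, n = 3, 2 and 3), and was called higher in elav5/fne over Canton-S (log2 change 0.38, adjusted p = 0.0093).

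Tk (tachykinins), Crz (corazonin) and Ms (myosuppressin) also fell in elav5/fne, to 32.8%, 34.7% and 48.8% of the Canton-S mean. In elav5 they stood at 105%, 120% and 105%, and were not called. Ms had 50.8, 51.9 and 47.0 CPM in elav5/fne, 78.6 and 137 CPM in elav5, and 97.1, 107 and 103 CPM in Canton-S. The elav5 libraries lay far apart, on either side of the Canton-S values. Without elav5 replicate 2 and elav5/fne replicate 3 the elav5 change of Ms was -0.38 (adjusted p = 0.034), without elav5 replicate 1 it was 0.42 (adjusted p = 0.031), and with all libraries it was 0.02 (adjusted p = 0.95), and over all alternatives the adjusted p ran from 0.031 to 0.99.

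Of the peptides of feeding and growth 7 of 8 were tested and all 7 fell in elav5/fne, against 26.7% of all tested genes. Their median change was -0.96, nearer to 0 than the medians of the ecdysis, water balance and allatostatin groups. SIFa, made by a few neurons of the pars intercerebralis, had the deepest fall among them and averaged 4.99 ± 1.18 CPM in elav5/fne, 28.9 ± 4.97 CPM in elav5 and 29.6 ± 4.64 CPM in Canton-S. NPF, the fly homolog of vertebrate neuropeptide Y, averaged 6.28 ± 0.796 CPM in elav5/fne, 15.3 ± 0.0766 CPM in elav5 and 22.8 ± 0.724 CPM in Canton-S. CCHa1 averaged 1.37 ± 0.492 CPM in elav5/fne, 7.46 ± 1.51 CPM in elav5 and 5.77 ± 0.197 CPM in Canton-S (SD, n = 3, 2 and 3 for each). SIFa and CCHa1 thus fell against both other genotypes without a call between elav5 and Canton-S, and NPF was lower in elav5 too (log2 change -0.54, adjusted p = 0.023).

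Hug, whose pyrokinins slow feeding, Dsk, the cholecystokinin-like satiety precursor, sNPF, a short peptide that promotes feeding, and CCHa2, a nutrient signal, kept 50.6% to 64.3% of the Canton-S mean in elav5/fne. Hug had 35.1, 35.8 and 27.6 CPM in elav5/fne, 41.8 and 47.2 CPM in elav5, and 59.7, 64.8 and 65.1 CPM in Canton-S. sNPF had 68.5, 73.7 and 61.6 CPM in elav5/fne, 114 and 121 CPM in elav5, and 113, 124 and 125 CPM in Canton-S. Hug was low in both mutants, while sNPF was low in elav5/fne and at 97.3% of the Canton-S mean in elav5. Hug was the only other called member of this group in elav5 (log2 change -0.50, adjusted p = 0.030). SIFa shares 21.1% of its exon length with Start1 on the opposite strand, which averaged 17.1 ± 2.29 CPM in elav5/fne, 18.3 ± 0.501 CPM in elav5 and 26.9 ± 2.28 CPM in Canton-S. RYa was not tested, since it was at 0 in every library but Canton-S replicates 2 and 3, with 0.0303 and 0.0263 CPM, both under the 3-read floor.

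**Figure D3:**
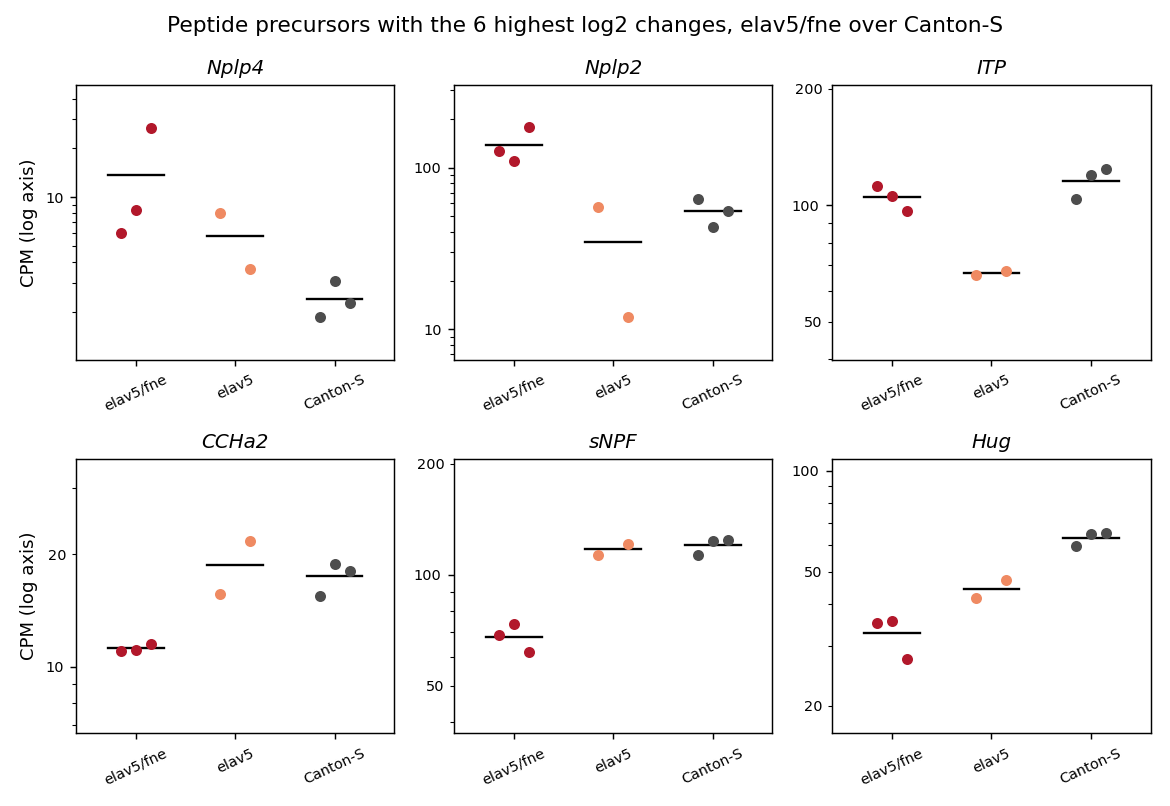
CPM on a log axis in each library (points) of elav5/fne, elav5 and Canton-S for the 6 peptide precursor genes with the highest log2 change in elav5/fne over Canton-S; the line is the group mean. elav5/fne lies above Canton-S for Nplp4 and Nplp2, overlaps it for ITP and lies below it for CCHa2, sNPF and Hug, while elav5 is lowest for ITP.

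Orcokinin and the 4 NPLP genes, named for neuropeptide-like precursors, included the deepest elav5 fall. They also held the only members called higher over Canton-S in the limma fit. Orcokinin, on 2R, had 0.841, 1.66 and 1.32 CPM in elav5/fne, 5.33 and 2.34 CPM in elav5, and 40.7, 47.2 and 44.5 CPM in Canton-S. The mutant groups lay close together and far from Canton-S, at 2.89% of its mean in elav5/fne and 8.68% in elav5. The log2 change over Canton-S was -4.32 in elav5/fne (SE 0.25, adjusted p = 5.5e-06) and -3.29 in elav5 (SE 0.28, adjusted p = 0.00084), and that in elav5/fne over elav5 was -1.03 (SE 0.28, adjusted p = 0.019). The last call was lost under 3 alternatives, the fit without elav5 replicate 1 among them, with a highest adjusted p of 0.097 among all of them.

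Nplp1, on 2R, encodes a precursor made by clusters of thoracic and dorsal Apterous neurons and had the highest level of the set in Canton-S, at 199 CPM per kb of exon. It had 107, 111 and 77.5 CPM in elav5/fne, 357 and 361 CPM in elav5, and 509, 535 and 567 CPM in Canton-S. The fall was again stepwise, to 18.4% in elav5/fne and 67.0% in elav5. The log2 change over Canton-S was -2.45 (SE 0.13, adjusted p = 4.2e-06) in elav5/fne and -0.58 (adjusted p = 0.031) in elav5.

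Nplp2, on 3L at 13356376 to 13357223 (plus strand), had 126, 110 and 177 CPM in elav5/fne, 57.2 and 11.9 CPM in elav5, and 63.6, 43.1 and 54.1 CPM in Canton-S. All elav5/fne libraries were above all others, and elav5 replicate 2 stood far below the rest. The log2 change was 1.34 (SE 0.49, adjusted p = 0.046) in elav5/fne over Canton-S and 2.31 (SE 0.55, adjusted p = 0.011) in elav5/fne over elav5. The call against Canton-S was lost in 11 of 21 alternatives, with adjusted p from 0.0013 to 0.13, among them the fit without each single library of Canton-S and of elav5/fne. In elav5 over Canton-S the change was -0.98 (adjusted p = 0.24), and it was -2.07 (adjusted p = 0.0079) without elav5 replicate 1 and 0.11 (adjusted p = 0.84) without elav5 replicate 2.

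Nplp4, on 2L at 2008414 to 2009072 (plus strand), had 6.08, 8.38 and 26.5 CPM in elav5/fne, 8.02 and 3.62 CPM in elav5, and 1.86, 3.09 and 2.26 CPM in Canton-S. Every mutant library was above every Canton-S library, and elav5/fne replicate 3 was the highest. The log2 change was 1.86 (SE 0.50, adjusted p = 0.013) in elav5/fne over Canton-S and 0.94 (adjusted p = 0.27) in elav5 over Canton-S. In elav5/fne over elav5 it was 0.92 (95% confidence interval -0.37 to 2.21, adjusted p = 0.21). Without elav5/fne replicate 3 the change over Canton-S was 1.28 (adjusted p = 0.011), and over all alternatives the adjusted p ran from 3.4e-05 to 0.046. Nplp3 was not tested and had at most 0.133 CPM in any library.

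In elav5/fne replicate 3 the muscle sum above was also the highest, and other non-neuronal markers were set beside the 2 rises. Trachea and cuticle markers summed to 191, 240 and 316 CPM in elav5/fne, 212 and 158 in elav5, and 165, 163 and 150 in Canton-S, with 3 of 5 tested higher in elav5/fne over Canton-S. Hemocyte markers summed to 134, 87.8 and 174 CPM in elav5/fne, 74.2 and 36.3 in elav5, and 106, 109 and 158 in Canton-S, with 4 of 7 tested higher. Gut markers summed to 17.5, 161 and 318 CPM in elav5/fne, 13.5 and 20.4 in elav5, and 38.5, 9.1 and 9.6 in Canton-S, with 3 of 7 tested higher. Among muscle markers 9 of 12 were higher. These counts are 60.0% of the tested trachea and cuticle markers, 57.1% of hemocyte, 42.9% of gut and 75.0% of muscle markers. Of all tested genes 32.5% were called higher in this comparison. Fat body markers summed to 221, 528 and 490 CPM in elav5/fne, 279 and 246 in elav5, and 579, 1206 and 499 in Canton-S. Of the 4 tested fat body markers 0 were called in elav5/fne over Canton-S. The part of the non-neuronal markers in the rises of Nplp2 and Nplp4 was not tested.

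Among neural markers, 9 of 10 general neuronal markers were lower in elav5/fne over Canton-S, with a median change of -0.89. In elav5 over Canton-S 3 of 10 were lower, with a median of -0.25. Of all tested genes 26.7% were called lower and 32.5% higher in elav5/fne, and 11.8% lower in elav5. The falls of the peptide precursors, with medians of -2.09 and -0.43, therefore came beside smaller median falls of these general markers. Neuroblast markers summed to 1315, 1229 and 1046 CPM in elav5/fne, 464 and 366 in elav5, and 405, 381 and 388 in Canton-S, with 6 of 7 higher in elav5/fne. Glial markers summed to 2595 to 3200 CPM in elav5/fne, 4170 and 4405 in elav5, and 3088 to 3380 in Canton-S. Markers of the ring gland, the endocrine organ attached to the brain, summed to 40.9, 47.6 and 38.4 CPM in elav5/fne, 47.9 and 22.4 in elav5, and 63.4, 95.9 and 101 in Canton-S, with 4 of 7 lower in each mutant. The part of these shifts in the falls of the peptide precursors was not tested.

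How much of the double mutant's loss was already present in elav5 differed widely between members. In CPM, the elav5 mean had lost 94.0% of the elav5/fne loss for Orcokinin, 90.0% for Pburs, 80.5% for Pdf, 64.2% for Eh, 61.4% for Hug and 60.2% for AstCC. For Capa, FMRFa, NPF and Nplp1 the share was 40.5% to 47.9%. It was 7.81% for Dh31, 6.18% for sNPF and 3.04% for SIFa, and these 3 change sign between the elav5 libraries: replicate 1 alone gave 16.3%, 13.4% and 17.3%, and replicate 2 alone lay above the Canton-S mean for each. For Gpb5, Dsk, CCHa1, CCHa2, Ms, Proc, Tk and Crz the elav5 mean lay above that of Canton-S, with none of these called by limma, although for Gpb5, Dsk, CCHa2, Ms and Crz replicate 1 alone lay below it. These shares depend on the CPM scale. On the log2 scale the changes over Canton-S in elav5 and elav5/fne were -3.29 and -4.32 for Orcokinin and -1.97 and -2.53 for Pburs. They were -2.18 and -4.85 for Pdf and -1.41 and -4.10 for Eh. The elav5 means rest on 2 libraries, and 25 of the 31 tested members (80.6%) were higher in elav5 replicate 2 than in replicate 1, against 52.3% of all tested genes. The coefficient of variation of a member between libraries had a median of 22.3% in elav5/fne, 14.8% in elav5 and 6.36% in Canton-S.

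Per kb of exon the order of levels also changed. In Canton-S the first 6 were Nplp1 at 199, Proc at 126, Nplp2 at 87.9, Dh31 at 87.4, Ms at 86.8 and Capa at 78.4 CPM per kb, followed by Crz at 76.7. Nplp2, Dh31 and Ms differed from each other by less than the spread between Canton-S libraries, and so did Capa and Crz. In elav5/fne Nplp2 came first at 226 CPM per kb, followed by Ms at 42.4 and Nplp1 at 36.5, while Capa was at 3.69 and Pdf at 0.839. The 35 genes span 420 to 28459 bases with a median of 2118, and the log2 change of the 31 tested ones in elav5/fne over Canton-S had Spearman coefficients of 0.19 with gene span, 0.13 with annotated 3' UTR length, 0.02 with exon length and -0.003 with the Canton-S mean (n = 31 genes, as a description only, since all share the same libraries). Of the 35 genes 15 lie on 3R, 8 on 2L, 6 on 2R, 4 on 3L, 1 on X and 1 on an unplaced scaffold.

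The machinery that processes and packs peptides was listed as 16 genes, all tested. In elav5/fne over Canton-S 10 (62.5%) were lower and 2 (12.5%) higher, against 26.7% and 32.5% of all tested genes. The median change of the list was -0.44. In elav5 limma called none lower and 2 (12.5%) higher, with a median of 0.11, against 11.8% and 8.29% of all tested genes. At an unadjusted p under 0.05, 2 were lower and 4 higher in elav5, with no share of all tested genes given at that threshold. edgeR called none lower and 1 higher, against 1021 and 958 of the 10575 tested genes. DESeq2 called 1 lower and 4 higher, against 1292 and 1425. Without elav5 replicate 2 and elav5/fne replicate 3 the elav5 counts were 2 lower and 3 higher. The deepest falls in elav5/fne were those of Pal2, a lyase of peptide amidation (log2 change -1.49), Sytbeta, a synaptotagmin of vesicle release (-1.39), and Cadps, a priming factor of dense-core vesicles (-1.17). Pal2 averaged 169 ± 8.56 CPM in elav5/fne, 482 ± 47.6 CPM in elav5 and 475 ± 13.2 CPM in Canton-S. The genes that rose were Rab2 (0.29) and svr, a carboxypeptidase that trims peptides (0.20, adjusted p = 0.0497), where edgeR called none of the list higher and DESeq2 called 1. In elav5 those that rose were svr (0.53, adjusted p = 0.0071) and Phm, the hydroxylase of peptide amidation (0.35, adjusted p = 0.044).

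Of 34 peptide receptors 32 were tested, and in elav5/fne over Canton-S 21 (65.6%) were lower and 1 (3.1%), Proc-R, higher. Of all tested genes 26.7% were lower and 32.5% higher there. The median change of the receptors was -0.75. In elav5 1 was lower and 1 higher (3.1% each), with a median of 0.10, against 11.8% and 8.29% of all tested genes. The higher count in elav5 was 2 with edgeR, against 958 of the 10575 tested genes, and 4 with DESeq2, against 1425. Neither exceeded the share over all tested genes. At an unadjusted p under 0.05 the higher count was 6, with no share of all tested genes given at that threshold. TrissinR, the receptor of trissin, averaged 7.41 ± 2.03 CPM in elav5/fne, 38.7 ± 2.36 CPM in elav5 and 47.6 ± 2.18 CPM in Canton-S. AstC-R2, a receptor of AstC, averaged 32.0 ± 2.35 CPM in elav5/fne, 141 ± 3.97 CPM in elav5 and 122 ± 8.92 CPM in Canton-S. SIFaR, the SIFamide receptor, averaged 24.2 ± 2.97 CPM in elav5/fne, 96.1 ± 7.22 CPM in elav5 and 89.7 ± 1.59 CPM in Canton-S. Receptor and precursor both fell in elav5/fne for AstC and SIFa, whereas the receptor was not called for Pdf and rose for Proc. In elav5 the called receptors were Dh44-R2 (log2 change -0.84, adjusted p = 0.00088) and MsR2 (0.60, adjusted p = 0.019).

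**Figure D4:**
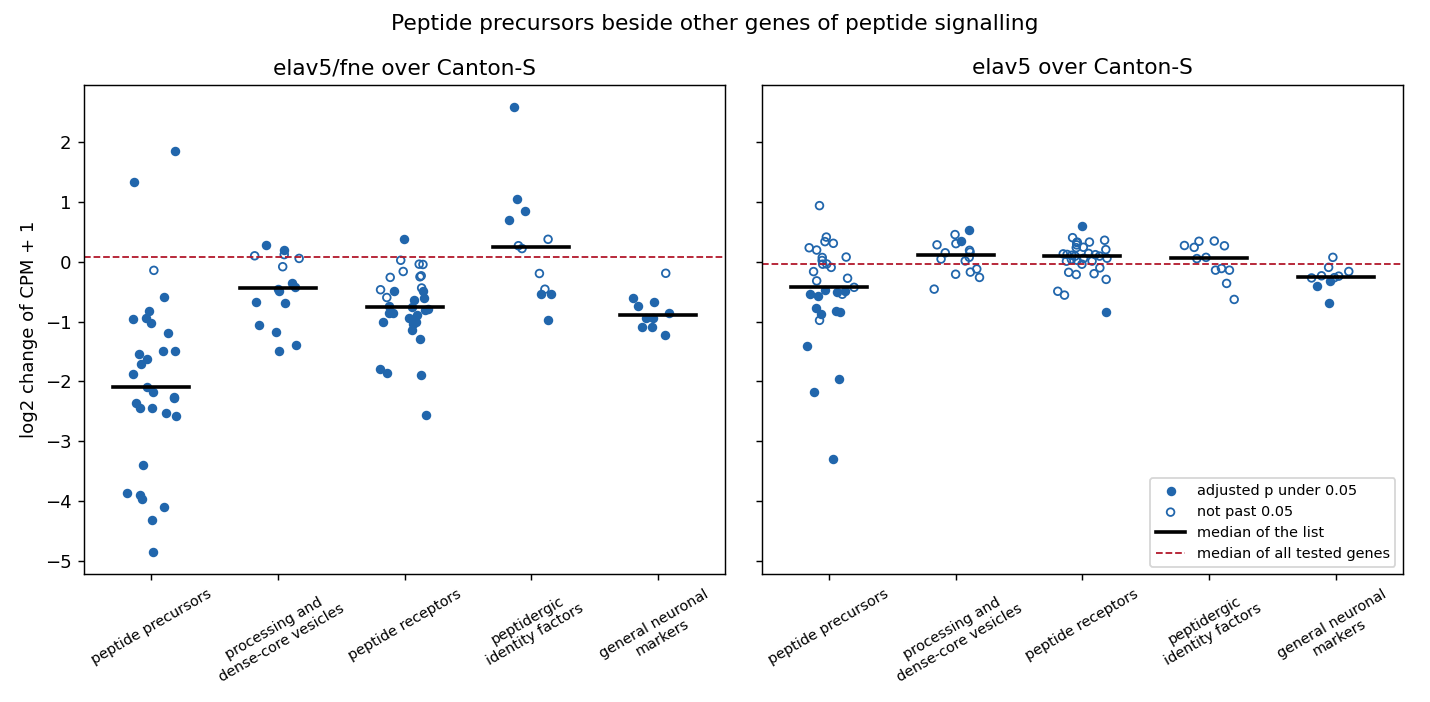
Log2 change of CPM + 1 (vertical axis) of each tested gene (points; filled, adjusted p under 0.05) in 5 lists, for elav5/fne over Canton-S (left) and elav5 over Canton-S (right); black lines are list medians and the dashed line is the median of all tested genes. In the left panel the peptide precursors have the lowest median, -2.09, against -0.89 for general neuronal markers, -0.75 for receptors and -0.44 for the processing machinery.

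Factors that set the identity of peptidergic neurons were listed as 12 genes, and in elav5/fne over Canton-S 3 (25.0%) were lower and 4 (33.3%) higher, shares near the 26.7% and 32.5% of all tested genes, so these counts do not set the list apart. In elav5 limma called none. At an unadjusted p under 0.05, 2 were lower and 1 higher in elav5, with no share of all tested genes given at that threshold. edgeR called none of the list, against 1021 lower and 958 higher of the 10575 tested genes. DESeq2 called 1 higher, against 1425. The genes that fell were wit, the type II BMP receptor (log2 change -0.97), Med, its co-Smad (-0.54), and dimm, a transcription factor of peptidergic cells (-0.53, adjusted p = 0.043). dimm averaged 11.3 ± 2.96 CPM in elav5/fne, 15.2 ± 0.512 CPM in elav5 and 16.6 ± 2.14 CPM in Canton-S. The largest rise was that of gbb, which encodes the BMP ligand, with 109, 103 and 95.8 CPM in elav5/fne, 13.9 and 10.99 CPM in elav5, and 16.02, 16.6 and 15.9 CPM in Canton-S (log2 change 2.59 over Canton-S, adjusted p = 1.8e-06). sqz and crc, zinc finger and leucine zipper factors with roles in peptidergic neurons, rose as well, by 1.05 and 0.85.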

How the data were processed

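The authors deposited CPM values per gene for 8 libraries made with a stranded total RNA kit from 0.1 ug RNA, per the labels' protocols, with reads aligned by HISAT2 to dm6, per the submitters' processing notes. For the read counter, the annotation, all versions and strand use, the sources used here give nothing. CPM steps gave whole reads for 100% of values (tolerance 0.01). On log2(CPM + 1), 3 genotype means were fitted to the 8 libraries in limma 3.58.1 under R 4.3.3, its variance prior following the mean, for 10575 genes with at least 1 CPM in 2 libraries, with Benjamini-Hochberg adjustment and a threshold of 0.05. This scale understates changes of low genes, and elav5, with 2 libraries, borrows the spread of the others. The fit was checked on simulated data with a common spread in all genotypes, unlike the spread seen between these libraries. Alternatives were edgeR 4.0.16 and DESeq2 1.42.0 on the recovered reads, other pseudocounts, filters and scalings, a replicate block, fits restricted to each pair of genotypes, and libraries left out. Gene models are from Ensembl BDGP6.54, which uses dm6 coordinates; 17710 gene IDs matched, 46 missing symbols were filled from IDs, and Nplp2 was matched by symbol. The members, lists and tests were chosen with earlier results of these data known. Values in every library were given for the 10 lowest changes in elav5/fne, the 6 lowest in elav5, members called higher and ITP; others are mostly given by group means. No sequences are printed.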

Additional observations from a re-analysis of the deposited data

How the results depend on the processing

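In elav5/fne over Canton-S the count of lower members was 28 under every alternative except the filter at a mean of 5 CPM, which left 25 because AstCC, CCHa1 and Pburs were not tested. The count of higher members was 1 under median-ratio scaling, TMM scaling, edgeR and limma without the trend, each time with Nplp2 lost, and 1 to 2 when 1 library was left out. In elav5 over Canton-S the count of lower members was 6 under quantile normalization, 7 with edgeR, 8 with the replicate block, and 5 to 14 when 1 library was left out; the count of higher members was 1 with DESeq2 (Proc), 1 without elav5 replicate 2 and elav5/fne replicate 3 together (Nplp4), and 0 to 1 when 1 library was left out. Over all tested genes the lower count in elav5 was 915 under quantile normalization, 1021 with edgeR and 508 with the replicate block. In the main fit it was 1247. DESeq2 called 1425 of all tested genes higher in elav5, against 877 in the main fit. The cause of these differences was not tested. The change of Ms in elav5 was -0.38 without those libraries together and 0.42 without elav5 replicate 1. In elav5/fne over elav5, 25 to 28 were lower and 2 higher with 1 library left out; CCHa2, Hug, Orcokinin and Pburs were not called in every alternative.

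The replicate number as a block left 28 lower and 2 higher in elav5/fne over Canton-S, and 25 and 2 in elav5/fne over elav5. Deviations of same-numbered libraries correlated at -0.36 to 0.11, and those of differently numbered libraries at -0.16 to 0.32. With 2 or 3 libraries in a group, deviations from the group mean are tied to each other. This check therefore cannot decide whether the numbers pair the libraries. Quantile normalization moved the median of all genes in elav5/fne over Canton-S to -0.11, where the main scale had 0.07, and left the members' counts as they were. With no filter amn was called higher in elav5/fne over Canton-S (log2 change 0.24, adjusted p = 0.040). Members under about 1 CPM rest on few reads, and the 2 libraries of elav5 limit what can be called there.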
